A study of Sus scrofa with 8 samples.

Results

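Translation initiation and elongation factors were examined in skeletal muscle of pigs fed a high or a low energy diet. Members were chosen by name: every gene whose only symbol in the platform annotation starts with EIF or EEF and a digit. That gave 36 of the 2922 genes on the array, 30 of them EIF genes on 74 spots and 6 EEF genes on 14 spots. Each of 8 arrays with 2 colours carried 1 high energy and 1 low energy muscle sample in competition. The arrays formed 4 couples, each hybridised once with the high energy sample in dye 5 and once in dye 3. Couple 1 set high energy sample 40 against low energy sample 49, couple 2 set 41 against 61, couple 3 set 40 again against 142, and couple 4 set ae against be, letters that the labels leave unexplained. The probes are annotated with human genes. The sources used here do not say the animals' age or breed, the muscle taken, what the diets contained, or whether a sample was 1 animal or a pool. P-values therefore rest on how far these couples vary, part of which may be technical.

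Every value is a log2 ratio of the colours of an array, so it says nothing about the level of a gene. The labels list low energy first and high energy second on every array, and the series' text calls low energy the reference. High over low energy is thus the likely direction and is used here as the diet ratio, the mean of both dye orientations of a couple. The turned ratio is computed after the values of the dye 3 arrays change sign. Should the deposited values instead be the other dye over dye 3, the diet effect is the turned ratio. Should the values be dye 3 over the other dye, the diet effect is the turned ratio with its sign reversed. The sign of a turned ratio is therefore not a known diet direction. Under the likely direction the turned ratio measures the dye. Turned values stand in parentheses or beside the diet ratio. A gene's fitted mean weights couples 1 and 3 less, because they share sample 40, and errors are limma's standard errors (SE) over 4 couples unless 3 are named.

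Protein synthesis begins when initiation factors load the initiator tRNA and the small ribosomal subunit on a capped mRNA and scan to the start codon. Elongation factors then bring each aminoacyl-tRNA to the ribosome and move the ribosome along the message. In muscle, feeding and insulin are known to stimulate protein synthesis through mTOR, which releases the cap-binding factor from inhibitory proteins, and much of that control acts on proteins rather than on mRNA levels. Messages of elongation factors belong, with those of ribosomal proteins, to the class whose translation is itself controlled by mTOR.

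The arrays held values for 77.6% to 94.4% of the 9984 spots, and for 33 to 36 of the 36 genes. All 36 were measured in at least 3 couples and tested, and 31 were on all 8 arrays. Neighbouring spots of a translation factor gene differed by a median of 0.25 log2 on the same array, and swapped arrays of a couple differed by a median of 0.23. Over all genes tested these medians were 0.30 and 0.25. Of 139 swapped pairs of values, 71, or 51.1%, had opposite signs, so reversing the dyes returned the same sign about as often as not. Spearman's rho between the swapped arrays, across the 33 to 36 genes measured in a couple, was -0.11, -0.17, -0.011 and -0.048 in couples 1 to 4. Over all genes tested it was also near 0, at 0.069, -0.017, 0.045 and -0.054. Genes share arrays and are not independent replicates. Only 4 of the 282 array values lay beyond 1 log2 in size, and 2 of them beyond 2.

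No translation factor gene passed the test of high against low energy. In limma's test, 0 of 36 had a Benjamini-Hochberg adjusted p under 0.05, against 0% of all 5025 features tested (0 called), a feature being a gene or a spot with no single symbol, and the smallest adjusted p among the 36 was 0.996. EEF1A1 and EIF6, 2 of the 36, had an unadjusted p under 0.05, both above 0. Of all features 1.37% reached that level above 0 and 2.41% below, together 3.78%. The 36 ratios ran from -0.18 for EIF3C to 0.38 for EIF4G2, with 23 above 0 and 13 below and a median of 0.042. The turned ratios ran from -0.24 for EIF1B to 0.27 for EIF3B, with 18 above 0, 18 below and a median of 4.3e-06. Among all features 46.4% were above 0, with a median of -0.012. Brightness was judged by the recovered signal, the larger of the whole numbers whose ratio gives a deposited value, which is a lower bound. Where the lesser number was not under 5000, the recovered signal may be arbitrary. Among the 999 genes whose spots were at least as bright as the median translation factor, 50.4% were above 0 and the median diet ratio was 0.00082. For 27 genes the 95% interval of the ratio lay within 0.5 log2 of 0, and for 35 within 1; the exception at 1 was EEF1A2.

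**Figure D1:**
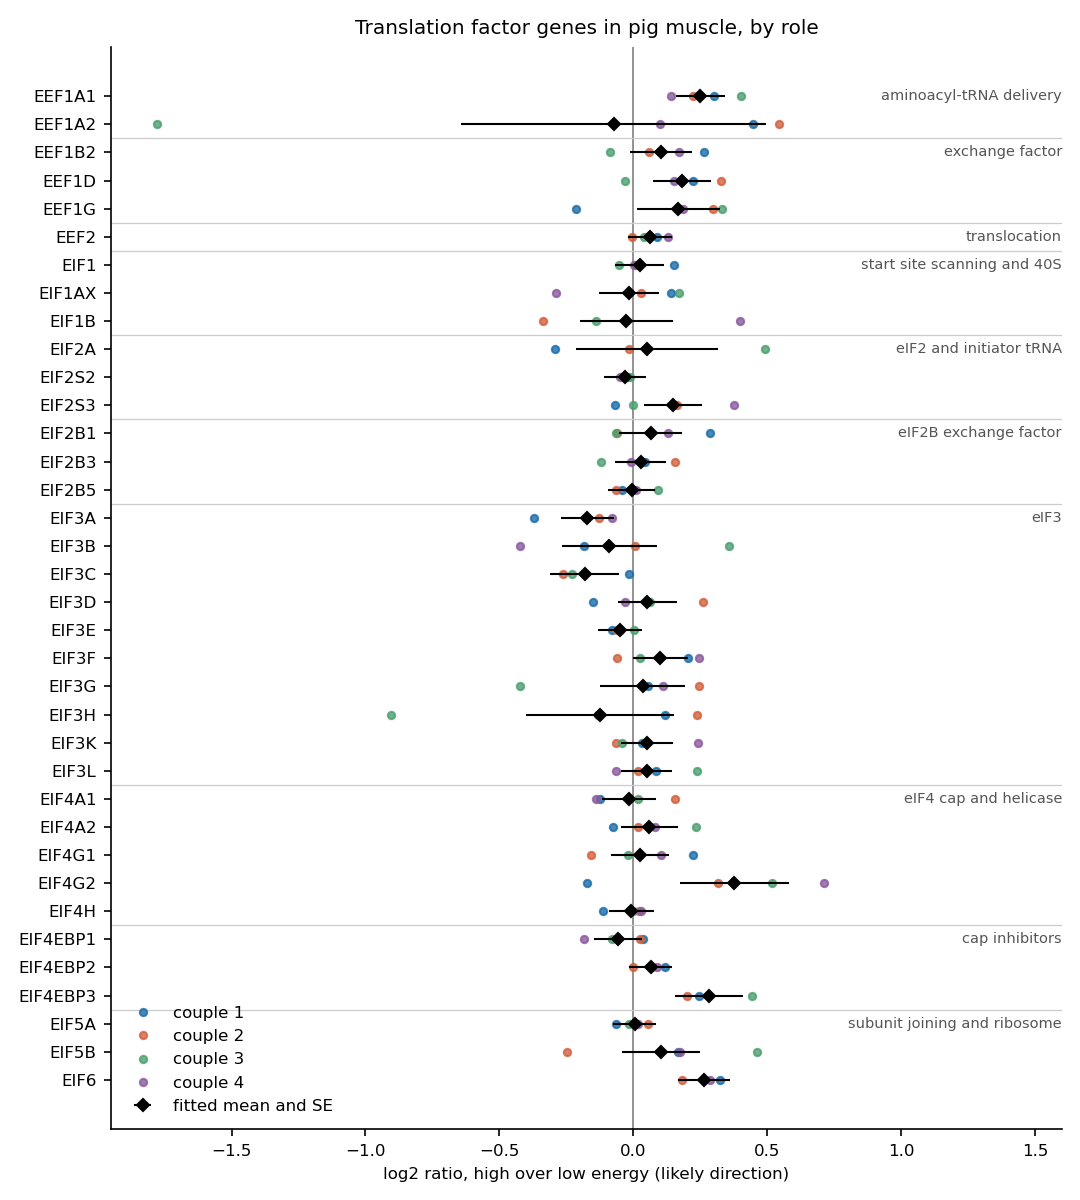
Log2 ratio (x axis, high over low energy in the likely direction) of the 36 translation factor genes (rows, by role); circles are couple means over both dye orientations, and diamonds with bars are the fitted mean ± SE over 3 or 4 couples. EEF1A1, EIF4EBP2, EIF4EBP3 and EIF6 lie above 0 in each couple measured in both orientations, EEF1A2 and EIF3H have 1 couple far below the others, and most means lie within 1 SE of 0.

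A ratio of 1 sign in all 4 couples was found for 4 of the 31 genes on all 8 arrays, or 12.9%, against 16.6% of all such features. EEF1A1 and EIF4EBP2 were above 0 in all 4 couples, as were 7.47% of features, and EIF2S2 and EIF3A below, as were 9.12%. EEF1A1 alone was above 0 on all 8 arrays, as were 0.797% of features, and 0 of the 31 were below 0 on all 8, against 1.46%. These counts are too small to read a difference from the array in either direction.

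EEF genes lay further above 0 than EIF genes, and the EEF median stood higher on the array with high energy in dye 5 in every couple. The groups are by symbol, and the EIF genes include the EIF4EBP inhibitors and EIF5A. Of 6 EEF genes 5 were above 0, with a median diet ratio of 0.14 and a median turned ratio of 0.14. Of 30 EIF genes 18 were above 0, with a median of 0.026 and a turned median of -0.018. The EEF median in couples 1 to 4 was 0.24, 0.26, 0.0042 and 0.15, and the EIF median 0.032, 0.013, -0.00096 and 0.016. The EEF median was the higher of the pair in every couple, by 0.21, 0.25, 0.0052 and 0.13, with next to no gap in couple 3. Taken over genes fitted from the dye 5 arrays alone, the EEF median was 0.23, and from the dye 3 arrays alone -0.044. The EIF medians by orientation were 0.011 and 0.049. On the arrays themselves the EEF median was 0.37, 0.20, 0.080 and 0.18 in dye 5 and 0.098, 0.062, -0.071 and 0.086 in dye 3. No test was made over the family.

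**Figure D2:**
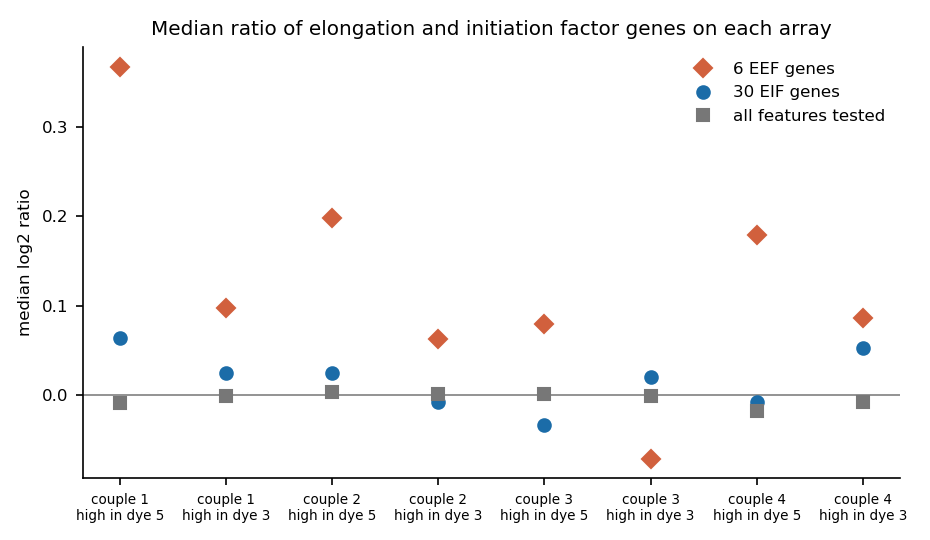
Median log2 ratio (y axis) of the 6 EEF genes (diamonds), the 30 EIF genes (circles) and the 5025 tested features (squares) on each of the 8 arrays (x axis). The EEF median is highest on the couple 1 array with high energy in dye 5, at 0.37, and lowest on the couple 3 array with high energy in dye 3, at -0.071, while the EIF medians stay between -0.034 and 0.064.

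EEF1A1, a form of the factor that carries aminoacyl-tRNA to the ribosome, was above 0 on every array, the only such gene of the 31 on all 8. It read 0.33, 0.34, 0.26 and 0.036 in couples 1 to 4 with the high energy sample in dye 5. With that sample in dye 3 it read 0.27, 0.11, 0.54 and 0.25. The lowest value was that of couple 4 in dye 5, and the orientations overlapped. The fitted ratio was 0.25 ± 0.091, or 1.19-fold, with a 95% interval of 0.024 to 0.48 and a turned ratio of -0.018 ± 0.097. Limma gave an unadjusted p of 0.0357 and an adjusted p of 0.996, so it did not pass. Leaving out a couple gave ratios of 0.22 to 0.30.

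The gene has spots at separate places of the array, and these differed in size and, on 4 arrays, in sign. The pair of neighbouring spots numbered 1195 and 1196 averaged 0.32, 0.30, 0.55 and 0.13 in dye 5 and 0.55, 0.16, 1.42 and 0.17 in dye 3. The pair 3713 and 3714 averaged 0.35, 0.38, -0.024 and -0.057 in dye 5, and -0.0067, 0.052, -0.34 and 0.33 in dye 3. The first pair was above 0 on all 8 arrays, with a plain mean over couples of 0.45, while the second was above 0 on 4 and had a mean of 0.085. The couple 3 array with high energy in dye 3 held the widest gap, 1.42 against -0.34. The sign on all 8 arrays is therefore that of an average carried by 1 of the spot pairs.

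EEF1A2 is the close paralogue that replaces EEF1A1 in adult muscle fibres, and probes annotated to the pair may bind transcripts of both. With high energy in dye 5 it read 0.40, -0.088, -0.021 and 0.11, and in dye 3 0.49, 1.18, -3.53 and 0.096. The couple 3 value of -3.53 was the largest in size of any translation factor, and its dye swap read -0.021. The fitted ratio was -0.073 ± 0.57 (turned 0.15 ± 0.50), with a 95% interval of -1.50 to 1.35, and without couple 3 it was 0.36. Its spots were dim, with a median recovered signal of 229, against 479 for EEF1A1 and 393 for all genes tested. In couples 1, 2 and 4 EEF1A2 averaged 0.45, 0.54 and 0.10, and EEF1A1 0.30, 0.22 and 0.14.

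**Figure D3:**
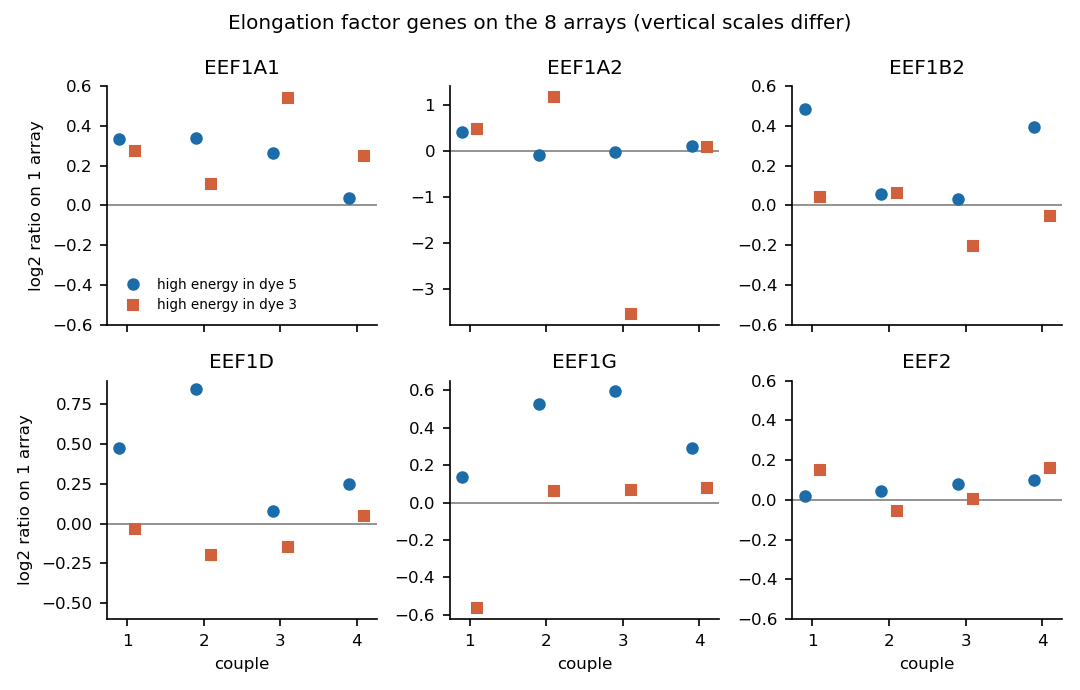
Log2 ratio on each array (y axis, scales differ) of the 6 EEF genes in couples 1 to 4 (x axis), with circles for high energy in dye 5 and squares for dye 3; points are averages over a gene's spots. EEF1A1 is above 0 throughout, EEF1D and EEF1G have every circle above every square, and EEF2 stays within 0.16 of 0.

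The 3 subunits of the exchange factor that recharges EEF1A with GTP, EEF1B2, EEF1D and EEF1G, were all above 0, and all had turned ratios at least as large. EEF1D read 0.48, 0.85, 0.082 and 0.25 in dye 5 and -0.035, -0.19, -0.15 and 0.049 in dye 3. EEF1G, the scaffold subunit, read 0.14, 0.53, 0.59 and 0.29 and -0.57, 0.063, 0.066 and 0.076. For both genes the lowest dye 5 value exceeded the highest dye 3 value. Their diet ratios were 0.18 ± 0.11 and 0.17 ± 0.16 (limma, unadjusted p = 0.146 and 0.325), and their turned ratios 0.26 ± 0.11 and 0.23 ± 0.089 (unadjusted p = 0.0644 and 0.0481). EEF1B2, a catalytic subunit, read 0.48, 0.056, 0.033 and 0.39 and 0.043, 0.062, -0.21 and -0.052, with a diet ratio of 0.10 ± 0.12 and a turned ratio of 0.13 ± 0.092. The median of these subunits was 0.17 for the diet ratio and 0.23 turned. Without couple 1 the ratio of EEF1B2 was 0.048 and that of EEF1G 0.27; without couples 2 and 3 that of EEF1G was 0.11 and 0.089.

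EEF2 moves the ribosome to the next codon. It had the largest median recovered signal of the EEF genes, 5853, and the diet ratio closest to 0. It read 0.021, 0.045, 0.077 and 0.10 in dye 5 and 0.15, -0.057, 0.0045 and 0.16 in dye 3. Its diet ratio was 0.063 ± 0.083, with a 95% interval of -0.14 to 0.27, and its turned ratio 0.00026 ± 0.084. The orientations overlapped.

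Among initiation factors, the genes that find the start codon showed no shared direction. EIF1 and EIF1AX hold the small subunit open for scanning, and EIF1B is a close paralogue of EIF1. EIF1 had 0.023 ± 0.093 (turned -0.036 ± 0.085) and EIF1AX -0.015 ± 0.11 (turned -0.012 ± 0.13). The spot pairs of EIF1AX differed in sign, with plain means over couples of 0.15 and -0.10. EIF1B, measured in 3 couples, read -0.58, -0.089 and -0.12 in couples 2 to 4 with high energy in dye 5 and -0.13, -0.099, -0.19 and 0.92 in couples 1 to 4 in dye 3. Only the couple 4 array in dye 3 was above 0, its ratio was -0.026 ± 0.17, and its turned ratio, -0.24 ± 0.14, was among the 3 largest in size. EIF1 and EIF1B had couple means of 0.011 and -0.34 in couple 2, -0.054 and -0.14 in couple 3 and 0.00065 and 0.40 in couple 4.

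The eIF2 complex brings the initiator tRNA, and eIF2B reloads it with GTP. Stress kinases phosphorylate the alpha subunit of eIF2, which then inhibits eIF2B. EIF2S2, the beta subunit, had the smallest SD of couple means of the 36 genes, 0.017, although its swapped arrays had opposite signs in all 4 couples. It read -0.071, 0.025, 0.034 and 0.12 in dye 5 and 0.027, -0.083, -0.057 and -0.22 in dye 3, with couple means of -0.022, -0.029, -0.011 and -0.051, and its ratio was -0.031 ± 0.079 (turned 0.067 ± 0.088), with a 95% interval of -0.23 to 0.17. EIF2S3, the gamma subunit, read 0.057, -0.16, 0.070 and 0.34 and -0.19, 0.48, -0.075 and 0.41. Its ratio was 0.15 ± 0.11 (turned -0.067 ± 0.11), with an unadjusted p of 0.226 in limma, and without couple 4 it was 0.050. EIF2A, which can deliver the initiator tRNA apart from eIF2, had 0.050 ± 0.26 (turned 0.074 ± 0.14) in 3 couples. Its spot pairs differed in sign, with plain means over couples of -0.20 and 0.23. The eIF2B subunits EIF2B1, EIF2B3 and EIF2B5 had 0.065 ± 0.12 (turned 0.019 ± 0.088), 0.028 ± 0.095 (turned -0.037 ± 0.086) and -0.0067 ± 0.086 (turned -0.064 ± 0.14), all within 1 SE of 0.

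The 10 subunits of eIF3, the scaffold that joins the small subunit to the mRNA, divided evenly around 0, with 5 above, 5 below and a median of -0.0078 (turned 0.013). EIF3A, its largest core subunit, read 0.55, -0.14, -0.55 and 0.035 in dye 5 and -1.29, -0.11, 0.20 and -0.20 in dye 3. Its couple means were all below 0, at -0.37, -0.13, -0.18 and -0.081, although its swapped arrays had opposite signs in couples 1, 3 and 4. The ratio was -0.17 ± 0.098 with a turned ratio of 0.14 ± 0.32 (limma, unadjusted p = 0.134 for the diet). EIF3C, in 3 couples, read 0.096, -0.37, -0.17 and -0.018 in dye 5 and -0.13, -0.15 and -0.29 in couples 1 to 3 in dye 3, so 6 of 7 arrays were below 0. Its ratio was -0.18 ± 0.13 (turned -0.00025 ± 0.12), with an unadjusted p of 0.219 in limma, and -0.12 without couple 2. EIF3E read -0.059, 0.21, -0.18 and -0.018 and -0.10, -0.33, 0.18 and -0.084, with a ratio of -0.050 ± 0.081 (turned 0.061 ± 0.11). Its spot pairs had plain means over couples of 0.00097, next to 0, and -0.062.

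EIF3B, another core subunit, had the largest turned ratio of the 36 genes, 0.27 ± 0.14, beside a diet ratio of -0.090 ± 0.18. It read 0.11, 0.60, 0.73 and -0.55 in dye 5 and -0.48, -0.59, -0.0085 and -0.30 in dye 3. EIF3H read 0.34, 0.44, -2.67 and 0.15 and -0.10, 0.034, 0.86 and -0.41. The couple 3 arrays of EIF3H thus lay 3.53 log2 apart, the widest gap between swapped arrays in the family, and its ratio went from -0.12 ± 0.27 (turned -0.16 ± 0.51) to 0.075 without couple 3. EIF3G, on 6 spots, had plain pair means of -0.051, -0.017 and 0.063 and a gene ratio of 0.034 ± 0.16 (turned -0.036 ± 0.092); 2 further spots annotated to EIF3G together with another gene were left out. The other subunits, EIF3D, EIF3F, EIF3K and EIF3L, lay between 0.050 and 0.10, each within 1 SE of 0, and turned between -0.22 and 0.098.

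Of the factors that unwind and bind the capped end, EIF4G2 had the largest diet ratio of all 36 genes but not the largest turned ratio. EIF4G2 is the relative of the eIF4G scaffold that lacks the cap-binding part and serves cap-independent initiation. It read -0.23, 0.66, 0.97 and 0.49 in dye 5 and -0.11, -0.032, 0.070 and 0.94 in dye 3. Both arrays of couple 1 were below 0, 1 array of couple 2 was just below 0, and the other 5 were above. The ratio was 0.38 ± 0.20 (turned 0.11 ± 0.17), the diet ratio being 1.30-fold with an unadjusted p of 0.118 in limma, and 0.23 without couple 4. EIF4G1, the scaffold itself, had 0.024 ± 0.11 (turned -0.029 ± 0.088). The helicases EIF4A1 and EIF4A2, close paralogues, had -0.016 ± 0.099 (turned 0.049 ± 0.11) and 0.060 ± 0.11 (turned -0.025 ± 0.12), with couple means of -0.13, 0.16, 0.018 and -0.14 for EIF4A1 and -0.076, 0.016, 0.23 and 0.080 for EIF4A2. EIF4H, which assists the helicase, had -0.0076 ± 0.085 (turned -0.052 ± 0.086), with all 8 arrays between -0.20 and 0.14. Its median recovered signal was the largest of the 36, 22799, a size at which it may be arbitrary.

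The 3 proteins that bind eIF4E and keep it from the eIF4G scaffold until mTOR phosphorylates them did not share a direction. EIF4EBP1 read 0.044, 0.10, -0.38 and -0.029 in dye 5 and 0.029, -0.057, 0.22 and -0.34 in dye 3, with a ratio of -0.057 ± 0.091 (turned 0.012 ± 0.12). EIF4EBP2 had a ratio of 0.064 ± 0.082 (turned -0.082 ± 0.091) and couple means of 0.12, 0.00011, 0.070 and 0.089, above 0 in each couple but next to 0 in couple 2. EIF4EBP3, in 3 couples, read 0.48, 0.48, 0.28 and 0.29 in dye 5 and 0.0054, -0.082 and 0.61 in couples 1 to 3 in dye 3. Of its 7 values 6 were above 0, and its ratio was 0.28 ± 0.13, or 1.22-fold (unadjusted p = 0.0796 in limma, turned 0.14 ± 0.17). Its spots were among the dimmer ones, with a median recovered signal of 198.

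EIF5B joins the ribosomal subunits, EIF6 keeps them apart until then, and EIF5A helps the ribosome through difficult peptide bonds. EIF6 was not measured in couple 3. It read -0.12, -0.34 and 0.67 in couples 1, 2 and 4 with high energy in dye 5 and 0.77, 0.70 and -0.097 in dye 3, so every couple held 1 array on each side of 0. The averages of those opposite values, 0.32, 0.18 and 0.29, were close to each other and gave 0.26 ± 0.096 (limma, unadjusted p = 0.0456). With every spot fitted on its own, EIF6 had a ratio of 0.14 with an unadjusted p of 0.34 in limma, and with the couple as replicate block over single arrays the unadjusted p was 0.168. Its turned ratio was -0.20 ± 0.21, and its small SE does not show the difference between the orientations. Its median recovered signal was 192, and its neighbouring spots differed by a median of 0.55. EIF5B had 0.10 ± 0.15 (turned -0.092 ± 0.18) and EIF5A 0.0044 ± 0.081 (turned 0.086 ± 0.089), the diet ratio closest to 0 of the 36, while EIF3C and EEF2 were closest to 0 when turned.

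Across the family, the turned ratio was as large as the diet ratio. The median size was 0.067 turned and 0.062 for the diet, and over all features 0.092 and 0.090. The turned ratio had the opposite sign in 19 of the 36 genes and the larger size in 20. In limma 0 of 36 genes passed for the turned ratio (0% of features, 0 called), and 1, EEF1G, had an unadjusted p under 0.05, against 2.65% of features. The dye orientations did not overlap for 4 of the 31 genes on all 8 arrays, or 12.9%, against 3.93% of features. EEF1D, EEF1G and EIF5A were higher in dye 5. EIF3D was higher in dye 3, at 0.35, 0.35, 0.22 and 0.18 against -0.65, 0.17, -0.093 and -0.24 in dye 5.

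**Figure D4:**
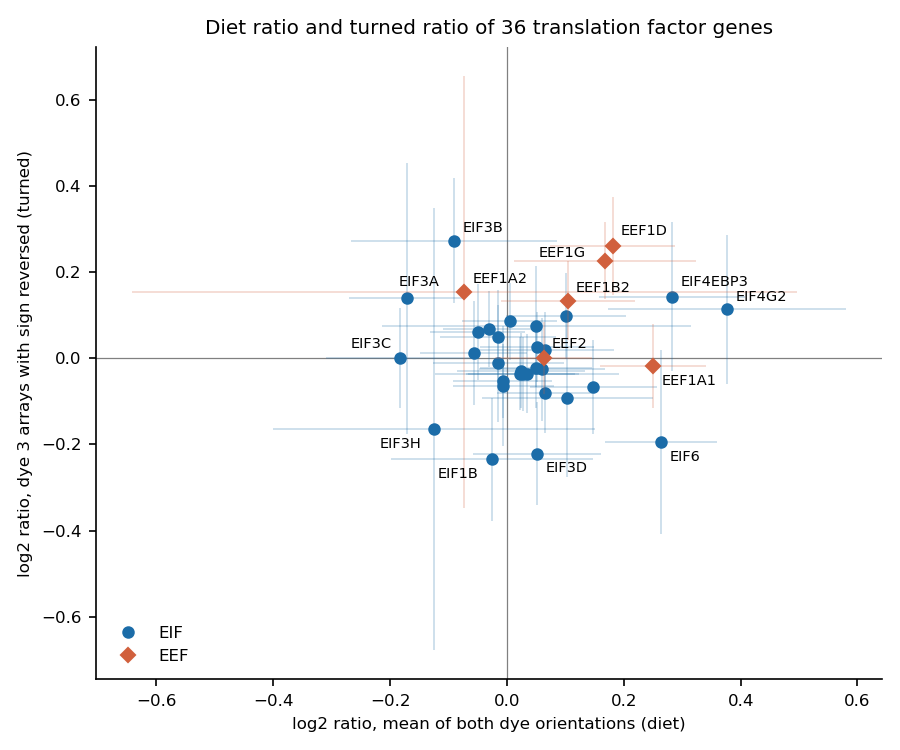
Diet ratio (x axis) against turned ratio (y axis) of the 36 genes in log2, circles for EIF and diamonds for EEF, with bars of 1 SE. EEF1A1 and EIF6 lie right of 0 with turned ratios of -0.018 and -0.20, while EEF1D, EEF1G and EEF1B2 lie above 0 on both axes.

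Brighter genes of the family had smaller diet ratios and varied less between couples, with the divide at a recovered signal of 1000 chosen after the values were seen. The SD of a gene's ratio over couples had a median of 0.12 and at most 0.20 in the 13 genes above that divide. In the 23 dimmer genes its median was 0.16 and it reached 1.09. The sizes of the diet ratios reached 0.15 in the brighter genes and 0.38 in the dimmer ones. All of EEF1A1, EIF6, EIF4EBP3, EIF4G2 and EIF3A were among the dimmer ones. Spearman's rho between brightness and SD was -0.40 over the 36 genes, which share arrays, -0.43 within the 13 brighter and -0.042 within the 23 dimmer genes. Of the brighter genes 10 were above 0, with a median of 0.051. Smaller ratios in brighter genes were not particular to the family. The 999 genes at least as bright as the median translation factor had a median size of 0.054 and a median SE of 0.096. All 2556 genes tested had 0.078 and 0.12.

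**Figure D5:**
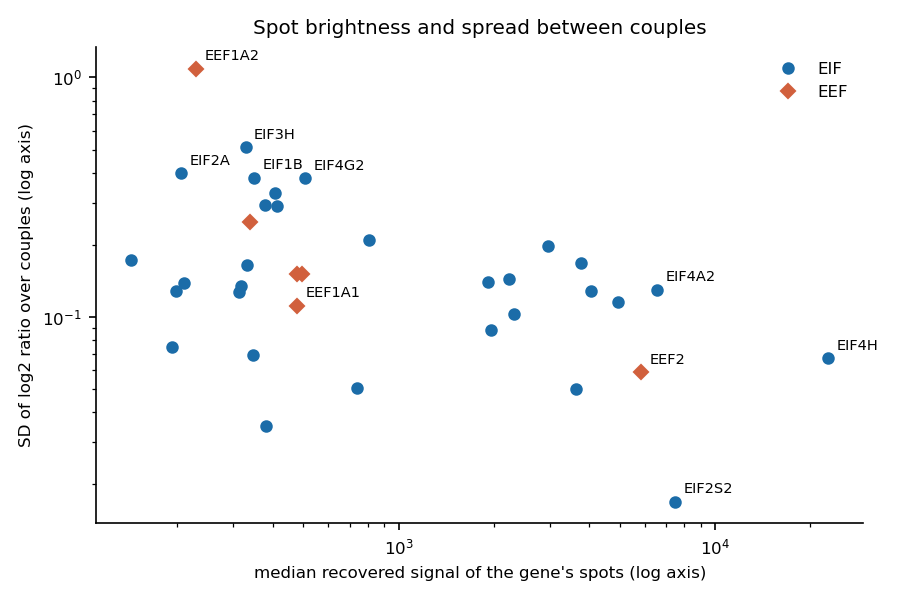
SD of the diet ratio over couples (y axis, log2 units on a log axis) against the median recovered signal of a gene's spots (x axis, log axis, a lower bound on brightness), circles for EIF and diamonds for EEF. EEF1A2 and EIF3H have the largest SDs, 1.09 and 0.51, and EIF2S2 the smallest, 0.017.

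Other genes of translation were read from a list of poly(A)-binding and release factors, the mTOR arm, hypusine enzymes, mitochondrial factors and aminoacyl-tRNA synthetases. Of 118 symbols 34 were on the array and 30 were tested. In limma 0 passed, 0 had an unadjusted p under 0.05, 17 were above 0 and 13 below, and the median was 0.032. Turned, 10 were above 0 and 20 below, with a median of -0.036. The smallest p above 0 belonged to GCN1, an activator of the eIF2 kinase GCN2, at 0.18 ± 0.11 (turned 0.21), LARP1, which binds the messages under mTOR control, at 0.26 ± 0.20 (turned 0.26), and MTIF3, a mitochondrial initiation factor, at 0.16 ± 0.16 (turned -0.066). Below 0 they belonged to MRRF, the mitochondrial ribosome recycling factor, at -0.17 ± 0.13 (turned 0.0080) in 3 couples, the release factor GSPT2 at -0.15 ± 0.13 (turned 0.046) and the mTOR complex subunit MLST8 at -0.098 ± 0.090 (turned -0.034). Without couple 4, LARP1 was at -0.010, GSPT2 at -0.017 and MTIF3 at 0.36. Without couple 2 LARP1 was at 0.46, without couple 3 MTIF3 was at 0.095, and without couple 1 MRRF was at -0.11.

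Markers of the cell types in muscle tissue were read beside these results. Of 11 fibre markers tested 8 were below 0, against 2693 of all 5025 features. The fibre median was -0.087, with couple medians of -0.12, -0.061, -0.077 and -0.10. Turned ratios of the fibre markers had a median of 0.016, with 7 above 0 and 4 below. On single arrays the fibre median was -0.095, 0.059, 0.0097 and 0.039 in dye 5 and -0.037, -0.089, 0.027 and -0.074 in dye 3. The 3 fibroblast markers had a median of 0.0013 (turned -0.14), the 3 vessel markers 0.19 (turned -0.16), the 2 adipocyte markers -0.072 (turned 0.16), the 4 immune markers -0.033 (turned -0.066) and the 4 blood markers -0.0018 (turned 0.099). None passed in limma. TNNT1, a slow fibre troponin, was at -0.21 ± 0.080 (turned -0.047), and MB, myoglobin, at -0.32 ± 0.10 (turned 0.22). Both had an unadjusted p under 0.05 in limma and were named after their values were seen. Of all features 2.41% reached that level below 0 and 3.78% in either direction. In the other marker lists, with only 2 to 4 genes each, 0 reached it. The markers' part in the translation factor ratios was not tested. A ratio cannot tell less RNA per cell from fewer cells of a type, nor show whether the labelled tissue's markers were present.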

How the data were processed

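Per the series' text, total RNA came from a modified Chomczynski extraction. High and low energy cDNA, in Cy3 and Cy5, shared an array, which was read on a ScanArray LITE scanner. The authors deposited log2 ratios of the colours, a base read from the values. Their background correction, spot filter and normalization, not given in the sources used here, left array medians of -0.0071 to 0.011, so the values were already centred near 0.

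Arrays were centred on their medians, and spots with the same single symbol were averaged, which with the unnamed spots made 6296 features. Symbols are those of a human annotation, 35 of the 36 occur in the pig tables, and no sequence was available to check how pig transcripts bind. Swapped arrays were averaged to 1 value per couple. Their replicate numbers pair them, since the titles name the same samples. The 5025 features measured in both orientations of at least 3 couples were fitted with limma 3.58.1 in R 4.3.3 (lmFit, eBayes) against 0, two-sided. Couples 1 and 3, which share sample 40, were given an assumed correlation of 0.5, with Benjamini-Hochberg adjustment over all features. The fit was also run on simulated data, with planted changes larger than any diet ratio of the 36 genes. That run cannot show how the fit performs at the ratios reported here. The recovered signal is the larger whole number of the simplest ratio that gives a value, and for 86.0% to 97.1% of an array's values the lesser number was under 5000; elsewhere it may be arbitrary.

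Array values are given for every EEF gene, the 4 EIF genes with the smallest p on each side of 0, and the 3 genes with the largest diet and turned ratios; other genes are given by role. EIF1, EIF2S2, EIF3D, EIF3G, EIF3H and EIF4H were singled out after their values were seen. Members and lists were chosen with earlier results of these data known.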

Additional observations from a re-analysis of the deposited data

Results flagged for a closer look

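In each dye orientation, the 4 arrays of a gene were checked for 1 value whose gap to the nearest of the other 3, as a share of the range, was over Dixon's 95% critical value. Of 66 such sets of arrays 5 met this, where chance gives about 1 in 20. EEF1G read -0.57 in couple 1 with high energy in dye 3, against 0.063 to 0.076 on the other 3 arrays. EIF1B read 0.92 in couple 4 in dye 3, against -0.19 to -0.099. EIF2B3 read 0.18 in couple 2 in dye 3, against -0.0051 to 0.024. With high energy in dye 5, EIF2B5 read 0.26 in couple 2, against -0.23 to -0.20, and EIF3H read -2.67 in couple 3, against 0.15 to 0.44. The same check on the 4 couple means found 0 in the 31 genes with 4 couples.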

How the results depend on the processing

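Under 19 alternative settings limma called 0 of the 36 genes, with 0 to 3 at an unadjusted p under 0.05, and under 16 it called 0 for the turned ratio (0 to 3 at that level) and 0 of the other genes of translation (0 to 1). With all 8 arrays and the couple as replicate block it called 0 of 36 genes, with 3 at an unadjusted p under 0.05. In that setting 353 of all 5025 features were at that level (0 called). The 3 genes were EEF1A1, EIF4EBP3 and EIF4G2, at unadjusted p of 0.0032, 0.015 and 0.047 in limma (adjusted 0.32, 0.58 and 0.70). The fitted correlation within couples was -0.036, so that fit counted swapped arrays almost as separate replicates. The EEF median of 0.14 was -0.044 from the dye 3 arrays alone and 0.10 to 0.19 when a couple was left out. The EIF median of 0.026 was 0.011 from dye 5 alone, 0.049 from dye 3 alone, -0.018 turned, and 0.012 to 0.037 without a couple, lowest without couple 1. The median of all 36 was 0.042, turned 4.3e-06, and 0.017 to 0.072 without a couple, lowest without couple 1 and highest without couple 2. Other settings moved these medians by less than the SD between couples. Single genes changed sign in 19 cases when turned, 11 and 9 in dye 5 or dye 3 alone, 4 to 6 without a couple, and 0 with no centring or with equal spread of arrays. Leaving out spots with a recovered signal under 200 kept 25 genes. The cause of these changes was not tested. The number of arrays limits the precision.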
